A study of Mus musculus with 6 samples.

Results

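The 9 genes described here are Itga2b, Gp9, Gp1ba, Gp1bb, Gp5, F2rl2, Treml1, Pf4 and Ppbp, which are used as markers of megakaryocytes, the large marrow cells that shed platelets. They were taken by symbol from the deposited count table of mouse bone marrow RNA-seq, and all 9 of its matching Ensembl identifiers, among 45706, passed the filter on low counts that kept 15141 genes for testing. Conditioned medium is medium in which other cells have been grown. The study set 4 libraries of marrow cultured in medium from the clear cell renal cell carcinoma (ccRCC) lines VpR83, VpR99, VpR126 and VpR2020, 1 library per line, against 2 libraries of marrow in control medium, called control replicates 1 and 2. The question was how marrow cells differ after exposure to products of tumour cells. The sources used here do not state the strain, age, genotype or number of the mice, the culture time or the batch. The series text describes the comparator as freshly isolated marrow whereas the sample labels give control medium, and the groups follow the sample labels. In the count table the VpR83 column is also tagged Ctrl, the VpR99 column T1 and the VpR126 column LT2, which no label explains. Each line stands for 1 medium and 1 library, so nothing separates the line from its library. P-values therefore rest on the spread among 6 libraries, and how much of that spread is technical is unknown.

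Platelets stick to damaged vessels through the GPIb-IX-V complex, whose subunits are encoded by Gp1ba, Gp1bb, Gp9 and Gp5 and whose ligand is von Willebrand factor. They then join to each other through integrin αIIbβ3, whose α subunit is the product of Itga2b and which binds fibrinogen. F2rl2 encodes the thrombin receptor PAR3, which on mouse platelets helps thrombin to cleave PAR4, and Treml1 encodes TLT-1, a receptor kept in the α-granules and shown on the surface after activation. Pf4 (platelet factor 4, CXCL4) and Ppbp (the precursor of CXCL7) are chemokines stored in the same granules, and Pf4 transcripts are also known from mouse monocytes and macrophages. GATA1 with its cofactor FOG1, FLI1 and other ETS proteins, and NF-E2 are the transcription factors best known for switching on these genes in megakaryocytes.

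The upstream sequence of 4 members is shown because these genes fall into the contrasting patterns described below, with Gp1ba and Gp9 in one and the neighbouring genes Pf4 and Ppbp in the other. Each run is the 250 bases before the RefSeq start on build GRCm38.p6, from the RefSeq promoter table, read 5′ to 3′ on the strand of the gene, and holds no annotated exon. Capitals mark matches on either strand to a GATA word (AGATAA or TGATAA or AGATAG or TGATAG) or an ETS word (AGGAAG or CGGAAG).
Gp1ba, chr11:70638872-70639121, plus strand: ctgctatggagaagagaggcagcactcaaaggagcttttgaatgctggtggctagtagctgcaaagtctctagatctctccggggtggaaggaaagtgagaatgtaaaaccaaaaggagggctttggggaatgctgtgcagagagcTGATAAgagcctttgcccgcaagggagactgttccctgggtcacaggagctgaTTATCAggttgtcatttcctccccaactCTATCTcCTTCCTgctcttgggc
Gp9, chr6:87777820-87778069, plus strand: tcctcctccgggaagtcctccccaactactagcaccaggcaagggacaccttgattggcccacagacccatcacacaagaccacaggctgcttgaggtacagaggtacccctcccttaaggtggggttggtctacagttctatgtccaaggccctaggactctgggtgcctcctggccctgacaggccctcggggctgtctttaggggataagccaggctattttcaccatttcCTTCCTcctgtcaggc
Pf4, chr5:90772185-90772434, plus strand: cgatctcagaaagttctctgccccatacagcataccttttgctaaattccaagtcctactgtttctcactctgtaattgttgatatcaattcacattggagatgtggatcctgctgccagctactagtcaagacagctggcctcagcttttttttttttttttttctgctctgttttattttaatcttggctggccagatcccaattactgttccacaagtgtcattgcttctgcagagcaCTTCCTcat
Ppbp, chr5:90768268-90768517, plus strand: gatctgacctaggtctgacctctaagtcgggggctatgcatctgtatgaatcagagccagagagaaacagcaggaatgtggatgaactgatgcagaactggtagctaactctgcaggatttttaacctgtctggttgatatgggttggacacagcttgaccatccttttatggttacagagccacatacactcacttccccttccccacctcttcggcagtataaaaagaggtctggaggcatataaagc
In the Gp1ba run the GATA matches began 104, 51 and 23 bases before the start and the ETS match began 16 bases before it. The Gp9 run held an ETS match that also began 16 bases before the start, the Pf4 run an ETS match that began 9 bases before it, and the Ppbp run no match to either word. Over the windows of all 9 members, 4 held a GATA match (Gp1ba, Gp5, Gp1bb and F2rl2), against 26.5% of the 32851 windows in the table. An ETS match stood in the windows of 7 members (all but Treml1 and Ppbp), against 39.2% of all windows. The NF-E2 word TGAGTCA stood in 1 member's window, that of F2rl2, against 4.46% of all windows. No matches overlapped in the member windows, and a match to such short words describes the sequence and is no evidence of binding.

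Conditioned libraries held between 19412158 (VpR2020) and 129120559 (VpR99) counts, against 27448621 and 18629708 counts in control replicates 1 and 2. Markers of other marrow cells differed widely between the groups. All 10 erythroid markers were called lower in conditioned medium, with summed levels of 0.478 to 5.15 counts scaled to library size (CPM) in conditioned libraries against 2323 and 5527 CPM in the controls, and all 8 macrophage markers were called higher, with sums of 13547 to 24908 CPM against 383 and 391 CPM. Of 8 neutrophil markers 7 were called lower. The 6 libraries were distinct: the lowest chi-square per degree of freedom of any pair of libraries was 29.9, between the controls. In bulk RNA, fewer cells of a type and less of an RNA per cell cannot be told apart.

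Tested as groups, 2 of the 9 genes changed: the chemokine genes Pf4 and Ppbp were higher in conditioned medium. No member was called lower, either by the quasi-likelihood test of edgeR (Benjamini-Hochberg adjustment over 15141 genes), by DESeq2 or by limma-voom, and 0 fell at an unadjusted p below 0.05 in edgeR. DESeq2 gave no adjusted p for 5 of the 9 (Itga2b, Gp9, Gp1ba, Gp1bb and Gp5), so it could call none of these in either direction. In the same edgeR test 22.5% of all genes were called higher and 19.7% lower at an adjusted p below 0.05. These shares are the background for the calls of this test in every gene list of the text. The 2 of 9 members called higher are close to the first share. The median log2 fold change was 1.31 over the 9 genes and -0.01 over all genes tested. The spread within the conditioned group was wide for the other 7 genes, because the VpR126 library stood apart from VpR83, VpR99 and VpR2020.

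**Figure D1:**
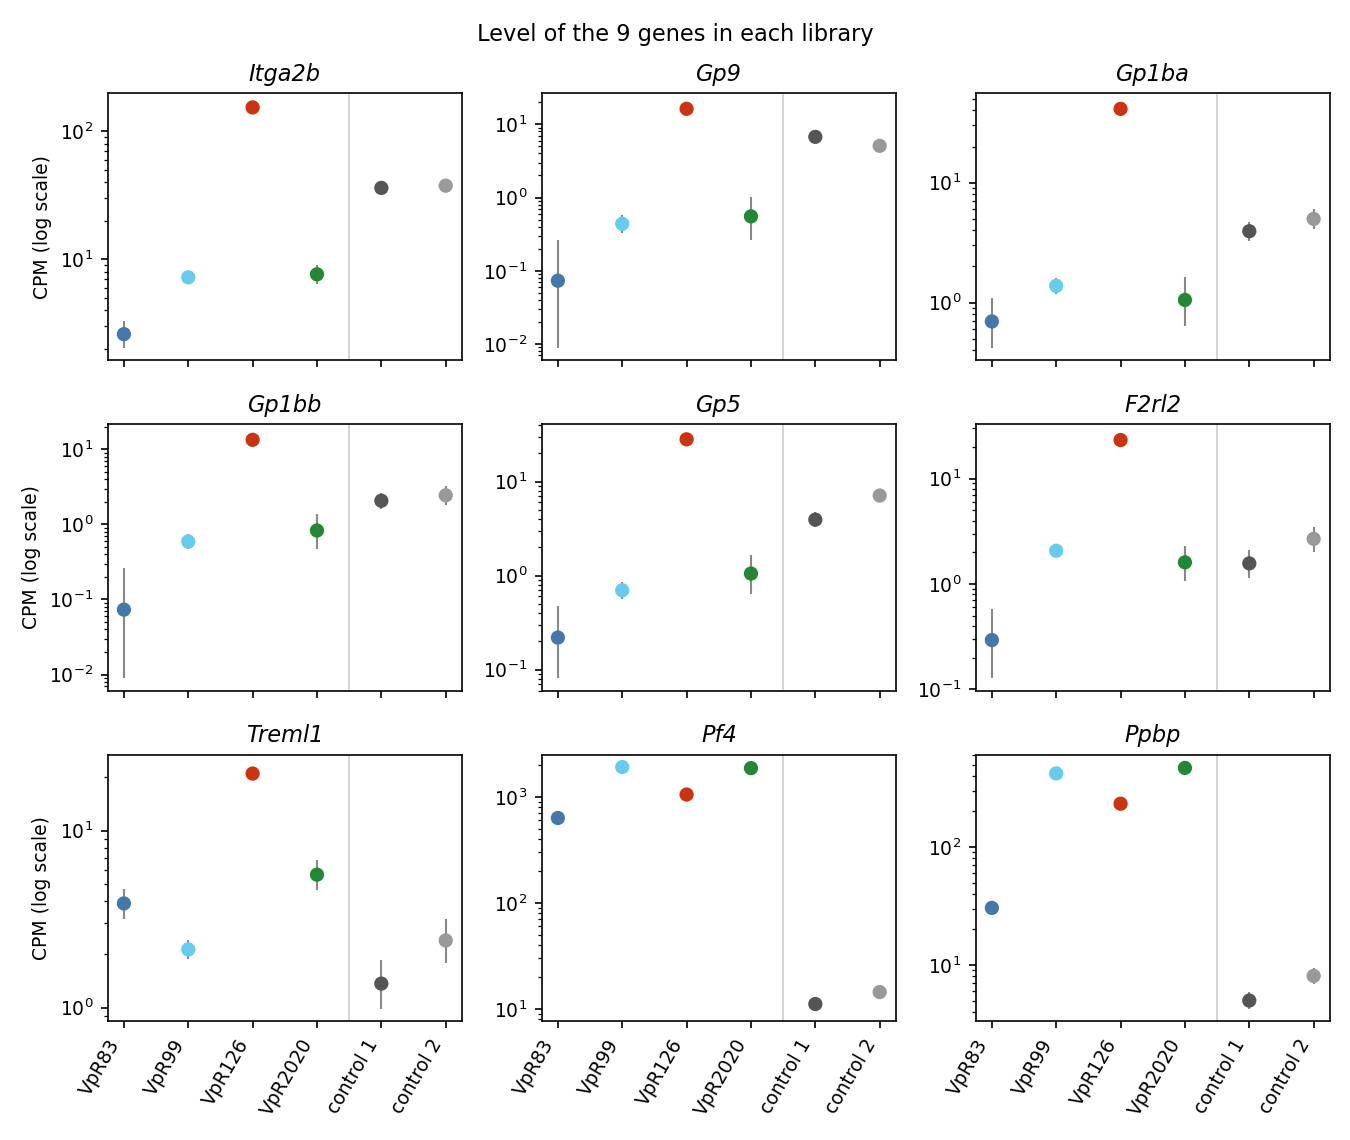
Level of each of the 9 genes in each library, as TMM-scaled CPM on a log axis that differs between panels. Points are single libraries (VpR83, VpR99, VpR126 and VpR2020 in conditioned medium, left of the line, and control replicates 1 and 2) and bars are exact 95% Poisson intervals of the count; Itga2b reached 154 CPM in VpR126, above every other library, whereas Pf4 was at 631 CPM or more in all 4 conditioned libraries and at 14.5 CPM or less in both controls.

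Among the adhesion receptor genes, Itga2b (ENSMUSG00000034664, chromosome 11, 102453297 to 102470122, minus strand, GRCm38) had 2.60 CPM in VpR83, 7.23 in VpR99, 154 in VpR126 and 7.63 in VpR2020, against 36.2 and 37.6 CPM in control replicates 1 and 2. The raw counts behind these levels were 71, 892, 3647 and 138 in the conditioned libraries, in the same order, against 1085 and 801 in the controls. VpR126 lay above both controls and the other 3 conditioned libraries lay below both. Set against the pooled controls, the level was 4.19-fold in VpR126 (95% Poisson interval 3.96 to 4.43), whereas it was 14.1-fold lower in VpR83 (11.2 to 18.2), 5.09-fold lower in VpR99 (4.69 to 5.51) and 4.82-fold lower in VpR2020 (4.05 to 5.77). These intervals, like all others given, cover counting error only. As a group, conditioned libraries averaged 42.9 ± 74.2 CPM and control libraries 36.9 ± 1.05 CPM (SD, n = 4 and n = 2). The group difference did not pass the test (log2 fold change 0.21 ± 1.56 SE, edgeR adjusted p = 0.92).

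Of the GPIb-IX-V genes, Gp1ba, the subunit that binds von Willebrand factor (chromosome 11, 70639122 to 70642036), had 0.696 CPM in VpR83, 1.38 in VpR99, 41.2 in VpR126 and 1.05 in VpR2020, against 3.93 and 4.98 CPM in the controls. Gp9, a small subunit of the complex (chromosome 6, 87778072 to 87779768), had 0.0732, 0.438, 16.3 and 0.553 CPM in the same conditioned libraries, against 6.73 and 5.08 CPM in the controls. Both genes were above both controls in VpR126 and below both in the other 3 conditioned libraries, as Itga2b was. In VpR83 the Gp9 level rested on 2 reads, which puts it 82.6-fold below the pooled controls with a 95% Poisson interval of 22.7 to 685.

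Gp5, which encodes the subunit that thrombin cleaves (chromosome 16, 30307685 to 30310779), had 0.220 CPM in VpR83, 0.697 in VpR99, 28.1 in VpR126 and 1.05 in VpR2020, against 3.93 and 7.10 CPM in the controls. Gp1bb, whose product is joined to that of Gp1ba (chromosome 16, 18620317 to 18622403), had 0.0732, 0.592, 13.4 and 0.830 CPM, against 2.07 and 2.44 CPM. Neither gene's conditioned libraries fell between the controls, with VpR126 above them and the other 3 below. The Gp1bb value is uncertain because 1902 of its 2087 exonic bases also belong to Sept5 on the same strand, and how the authors' counting treated such reads is not given. Sept5 itself had 304, 3286, 468 and 225 raw reads in VpR83, VpR99, VpR126 and VpR2020, against 3595 and 2649 in the controls. Scaled to library size, Sept5 lay below both controls in every conditioned library, VpR126 included. The part of Sept5 in the Gp1bb values was not tested.

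None of these 4 subunit genes passed the group test. The log2 fold changes were 1.31 ± 1.79 for Gp1ba, -0.46 ± 1.74 for Gp9, 0.44 ± 1.79 for Gp5 and 0.71 ± 1.70 for Gp1bb (SE), with edgeR adjusted p-values of 0.58, 0.85, 0.86 and 0.75 in this order. The balance among the subunits differed between libraries. Per kilobase of exon (RPKM), Gp9 stood at 0.325, 0.98, 1.22 and 1.62 times Gp1ba in VpR83, VpR99, VpR126 and VpR2020, against 5.28 and 3.14 times in the controls. Every conditioned library lay below both controls in this ratio of levels, VpR126 included. The Gp5 to Gp1ba ratio in VpR2020 and in control replicate 1 was 1.24 in both, and Itga2b stood at 0.335 to 0.629 times Itgb3, the gene of its partner subunit, in conditioned libraries against 0.717 and 0.594 in the controls.

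**Figure D2:**
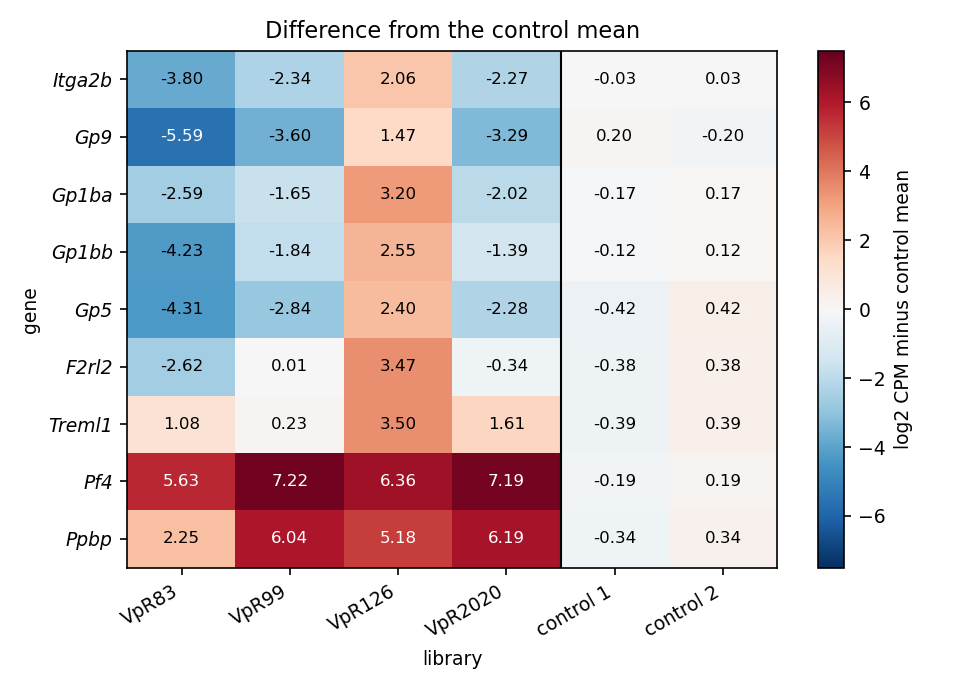
Difference of each library from the mean of the 2 controls in log2 CPM (prior count 2), for the 9 genes (rows) in the 4 conditioned libraries and the controls (columns), with the value printed in each cell. Itga2b, Gp9, Gp1ba, Gp1bb and Gp5 are negative in VpR83, VpR99 and VpR2020 and positive in VpR126, and Pf4 and Ppbp are positive in all 4.

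The receptor genes F2rl2 and Treml1 were also highest in VpR126, but were not low in each of the other conditioned libraries. F2rl2 (chromosome 13, 95696853 to 95702739) had 0.293 CPM in VpR83, 2.07 in VpR99, 23.3 in VpR126 and 1.60 in VpR2020, against 1.57 and 2.68 CPM in the controls. Only VpR83 lay below both controls, and VpR99 and VpR2020 lay between them. The log2 fold change of the group was 1.68 ± 1.62 SE (edgeR adjusted p = 0.43). The gene lies inside Iqgap2 on the opposite strand without sharing exons. Iqgap2 had 5276, 19376, 6950 and 4223 raw reads in VpR83, VpR99, VpR126 and VpR2020, against 3589 and 2175 in the controls. Scaled to library size, Iqgap2 was highest in VpR126, as F2rl2 was. Without the authors' strand setting, reads from Iqgap2 introns cannot be told apart from F2rl2 reads.

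Treml1 (chromosome 17, 48359916 to 48367176) had 3.88 CPM in VpR83, 2.13 in VpR99, 21.0 in VpR126 and 5.64 in VpR2020, against 1.37 and 2.40 CPM in the controls. No conditioned library lay below both controls, and VpR99 lay between them. The group difference did not pass the main test (log2 fold change 2.12 ± 1.02 SE, edgeR adjusted p = 0.14) and passed in DESeq2 (adjusted p = 0.034). The range of its adjusted p over all alternatives run was 0.034 to 0.41. Among its relatives of the Trem family, edgeR called 1 of 5 tested genes higher, against 22.5% of all genes, and 2 lower, against 19.7%. Trem2, a receptor of macrophages, had 409, 217, 296 and 509 CPM in VpR83, VpR99, VpR126 and VpR2020, against 10.7 and 7.75 CPM in the controls (log2 fold change 5.27 ± 0.47 SE, edgeR adjusted p = 9.1e-04), while Trem1 and Trem3 were lower by log2 fold changes of -2.95 and -2.87. Trem1 had 365 and 61.8 CPM in the controls, and without control replicate 1 its value was -1.17 and did not pass (edgeR adjusted p = 0.29). In the protease-activated receptor family F2rl1 was called lower and F2r and F2rl3 were not called; F2r had 17.3 CPM in VpR126 and 0.439 to 1.55 CPM in the other conditioned libraries, against 7.43 and 8.22 CPM in the controls.

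Pf4 was higher in every conditioned library than in either control. It had 631 CPM in VpR83, 1908 in VpR99, 1050 in VpR126 and 1862 in VpR2020, against 11.2 and 14.5 CPM in the controls (chromosome 5, 90772435 to 90773383). Conditioned libraries averaged 1363 ± 627 CPM and controls 12.8 ± 2.34 CPM (SD, n = 4 and n = 2). The log2 fold change was 6.73 ± 0.67 SE (edgeR adjusted p = 0.0012), and Pf4 was called under every alternative run, at adjusted p-values up to 0.023. Per kilobase of exon, Pf4 ranked 36, 13, 23 and 14 among 15082 genes in VpR83, VpR99, VpR126 and VpR2020, against ranks 3053 and 2360 in the controls, so that a single chemokine gene stood among the most abundant transcripts of the conditioned cultures.

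Ppbp, which lies 2371 bases from Pf4 on the same strand (chromosome 5, 90768518 to 90770063), had 30.5 CPM in VpR83, 421 in VpR99, 233 in VpR126 and 468 in VpR2020, against 5.0 and 8.08 CPM in the controls. All 4 conditioned libraries lay above both controls, and VpR83 was well below the other 3. The log2 fold change was 5.46 ± 1.22 SE (edgeR adjusted p = 0.014). The call did not survive the loss of either control, with edgeR adjusted p-values of 0.107 without control replicate 1 and 0.088 without control replicate 2. It was also lost with no low-count filter (0.071) and in limma-voom (0.052), while the log2 fold change stayed between 5.14 and 5.86 with any 1 library left out.

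The chemokines did not keep a fixed proportion. Pf4 per kilobase stood at 31.1, 6.81, 6.78 and 5.97 times Ppbp in VpR83, VpR99, VpR126 and VpR2020, against 3.35 and 2.69 times in the controls. Between lines, Ppbp in VpR2020 was 15.4-fold its level in VpR83 (95% Poisson interval 14.3 to 16.5), and Pf4 was 2.95-fold (2.90 to 3.01). Other CXC chemokine genes of the same chromosome 5 cluster also differed: of 4 tested, edgeR called Cxcl3 and Cxcl1 higher and did not call Cxcl2 and Cxcl5, while DESeq2 called 3 higher and limma-voom 1. Cxcl3, a neutrophil attractant, had 5.34, 83.6, 11.7 and 16.0 CPM in VpR83, VpR99, VpR126 and VpR2020, against 0.733 and 0 CPM in the controls (log2 fold change 6.19 ± 1.77 SE, edgeR adjusted p = 0.031). The Cxcl3 value was 13.29 without control replicate 1 and 5.34 without control replicate 2, and neither passed (edgeR adjusted p = 0.083 and 0.14). The summed macrophage markers given above were higher in the same 4 libraries as Pf4 and Ppbp, and their part in this result was not tested.

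Left out of the fit, VpR126 changed which members were called. Each library was left out in turn, and this fit is described because VpR126 was seen to stand apart for these genes. P-values without VpR126, here and below, therefore follow a choice made on the same values. Fits without both VpR126 and a control were not run. With VpR83, VpR99 and VpR2020 against the controls, 4 members fell, against 22.3% of 15107 genes tested in that fit, and 2 rose, against 24.2%. The 4 were Itga2b with a log2 fold change of -2.65 ± 0.45, Gp9 with -4.03 ± 0.66, Gp1ba with -2.06 ± 0.38 and Gp5 with -3.08 ± 0.63 (SE), at edgeR adjusted p-values of 0.0070, 0.0062, 0.0085 and 0.012. Gp1bb had a log2 fold change of -2.17 ± 0.75 and F2rl2 one of -0.64 ± 0.76, and neither passed (edgeR adjusted p = 0.060 and 0.52). Treml1 kept a positive value of 1.05 ± 0.52 (edgeR adjusted p = 0.15). Pf4 and Ppbp were called higher in this fit too, with log2 fold changes of 6.85 and 5.57.

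**Figure D3:**
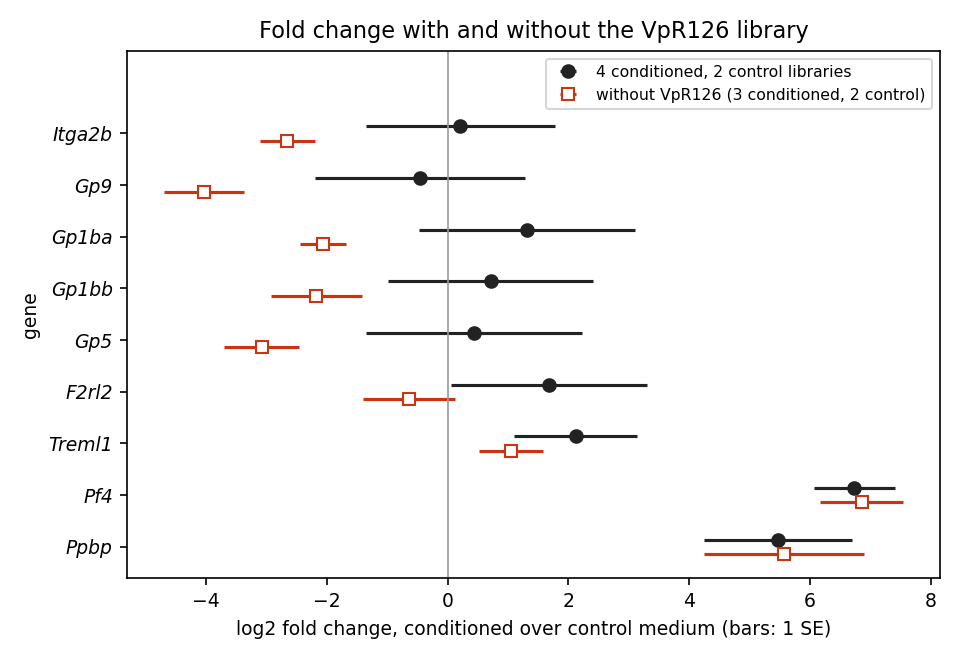
Log2 fold change of conditioned over control medium for the 9 genes, with all 4 conditioned libraries (filled circles) and without VpR126 (open squares); bars are 1 SE, and 2 control libraries enter both fits. Without VpR126 the bars of Itga2b, Gp9, Gp1ba, Gp1bb and Gp5 shorten and lie below 0, and those of Pf4 and Ppbp stay above 0.

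Library by library, with no replicate of any line and therefore no test, a gene was counted when its log2 CPM lay at least 4-fold below the lower control or above the higher control. All 4 line counts below share the same 2 controls. In VpR83, 6 members were at least 4-fold lower (all but Treml1, Pf4 and Ppbp), against 11.6% of all genes, and Pf4 was at least 4-fold higher, against 6.95%. In VpR99, Itga2b, Gp9 and Gp5 were at least 4-fold lower, against 7.79% of all genes, and Pf4 and Ppbp higher, against 5.93%. In VpR2020, Itga2b and Gp9 were lower, against 11.3%, and Pf4 and Ppbp higher, against 8.03%. In VpR126 no member was lower, against 8.16% of all genes, and 7 were higher (all but Gp9 and Gp5), against 8.75%.

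VpR126 was then set against the other 3 conditioned libraries, by a rule chosen after the values were seen. Itga2b, Gp9, Gp1ba, Gp1bb, Gp5 and F2rl2, 6 of the 9 genes, were at least 4-fold higher in VpR126 than in each of VpR83, VpR99 and VpR2020, which held for 214 of 15141 genes (1.41%). No member stood 4-fold above the other 3 in VpR83 (0.0198% of all genes), VpR99 (0.324%) or VpR2020 (0.0528%). The smallest of the gaps was that of F2rl2, 11.3-fold its VpR99 level (95% Poisson interval 9.69 to 13.1), and Gp1ba had the widest gap to the next library, 29.9-fold VpR99 (25.4 to 35.4). Itga2b in VpR126 was 59.3-fold its VpR83 level (46.9 to 76.1), 21.3-fold VpR99 (19.8 to 22.9) and 20.2-fold VpR2020 (17.0 to 24.1). Treml1 in VpR126 was 3.73-fold VpR2020 (3.01 to 4.66). Ordered by the gap to the next conditioned library, Gp1ba stood at rank 16 of 15141, Gp9 at 20, Gp5 at 23, Itga2b at 35, Gp1bb at 43 and F2rl2 at 65. Pf4 and Ppbp did not share the pattern: Pf4 in VpR99 was 1.82-fold its VpR126 level (1.79 to 1.84).

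**Figure D4:**
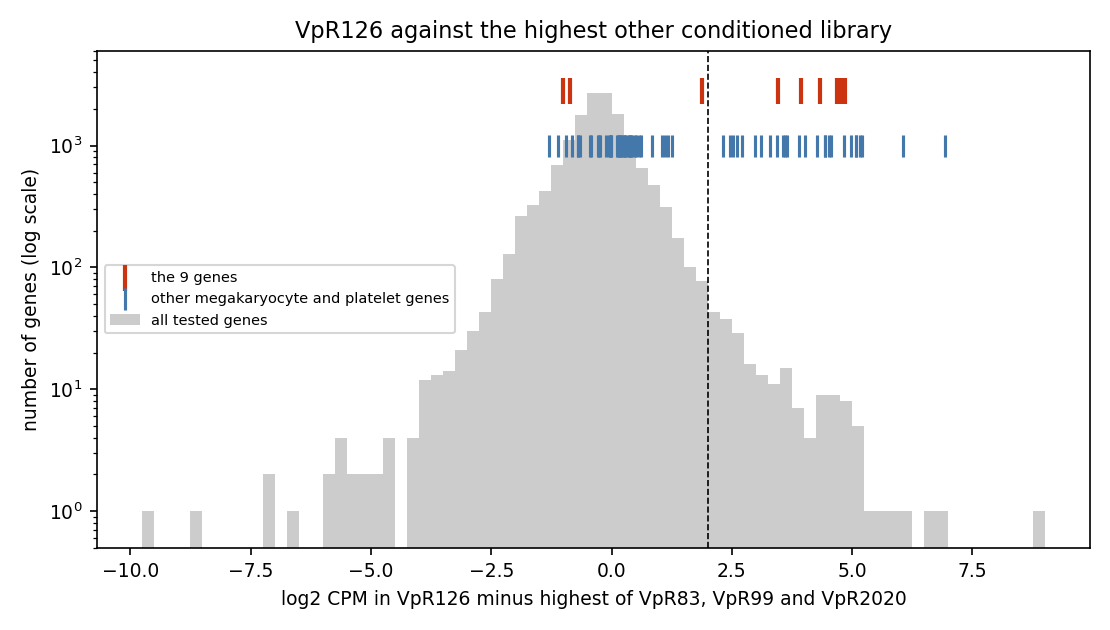
Histogram of log2 CPM in VpR126 minus the highest of VpR83, VpR99 and VpR2020 for all 15141 tested genes (grey, log axis of gene numbers), with red ticks for the 9 genes and blue ticks for 67 other megakaryocyte and platelet genes. The dashed line marks 4-fold; 6 red and 27 blue ticks lie beyond it, among 214 genes in all.

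Summed over the 7 members other than Pf4 and Ppbp, the level was 7.83 CPM in VpR83, 14.5 in VpR99, 297 in VpR126 and 18.4 in VpR2020, against 55.8 and 62.3 CPM in the controls. Erythroid markers also summed highest in VpR126 among the conditioned libraries, at 5.15 CPM against 0.478 to 2.27 CPM in the others. All 4 sums lay below both controls, at 5527 and 2323 CPM. Epor gave 4.27 CPM of the VpR126 sum, and Slc4a1 and Rhag had 0 reads in all 4 conditioned libraries. Macrophage markers summed to 18123, 13547, 18395 and 24908 CPM in VpR83, VpR99, VpR126 and VpR2020, a sum that Gpnmb dominates, with 7642 CPM in VpR126 and 9139 to 16379 CPM in the others. Of the 8 macrophage markers, Csf1r, Adgre1, C1qa and Mertk were highest in VpR126, with Csf1r at 4742 CPM there and 982 to 2656 CPM in the others, against 166 and 169 CPM in the controls. Their part in the VpR126 pattern was not tested. Mast cell and basophil markers, which share GATA factors with megakaryocytes, summed to 64.8 CPM in VpR126 and 3.55 to 33.6 CPM in the others, against 552 and 527 CPM in the controls. Stem and progenitor markers summed to 43.5 CPM in VpR126 and 19.2 to 37.5 CPM in the others, against 147 and 149 CPM. Of 6 tested, 1 (Slamf1) was at least 4-fold above the other conditioned libraries in VpR126, against 1.41% of all genes. Endothelial and stromal markers, some of whose cells also make von Willebrand factor, summed to 42.3 CPM in VpR126 and 19.6 to 65.2 CPM in the others, against 107 and 106 CPM. Of these 7 markers edgeR called 4 lower and 1, Kdr, higher. Kdr had 10.2, 20.1, 5.53 and 2.27 CPM in VpR83, VpR99, VpR126 and VpR2020, against 0.667 and 0.846 CPM in the controls.

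Other genes of megakaryocytes and platelets, 69 in 7 role lists of which 67 were tested, also depended on VpR126. In the edgeR group test 10 of the 67 were called higher, against 22.5% of all genes, and 10 lower, against 19.7%. Without VpR126, 12 of 65 were higher, against 24.2% of all genes, and 26 lower, against 22.3%. Gp6 and Mpig6b passed the low-count filter only with VpR126 included and were not tested in that fit. Dropping either control left fewer calls in both directions, among these genes and among all genes. Of the genes of these lists named below as called, Zfpm1, Tal1, P2ry12, Sparc, Plek and Tbxas1 stayed called with either control left out, whereas Nfe2, Runx1, Fli1, Mef2c, Vwf, Tgfb1, Pdgfb, Srgn, Nbeal2, Rasgrp2, Ptgs1 and Tuba4a did not. The median log2 fold change was 0.59 with VpR126 and -0.69 without it. Of the 67, 27 (40.3%) were at least 4-fold above the other 3 conditioned libraries in VpR126, against 214 of all 15141 genes (1.41%). Gp6 and Mpig6b are among the 27. Of these 27, 25 lay below both controls in VpR83, VpR99 and VpR2020. The share with that joint pattern was not computed over all genes, so the 25 has no background.

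**Figure D5:**
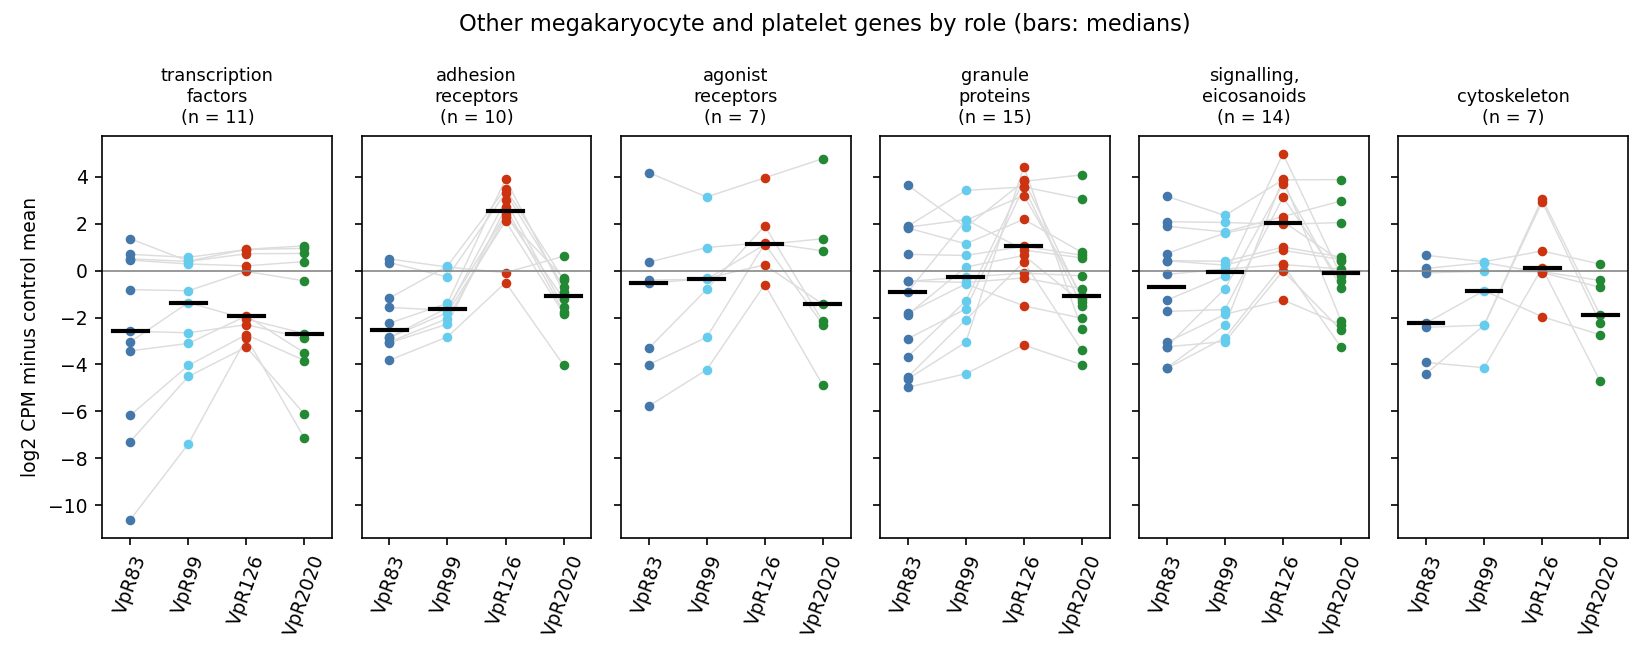
Log2 CPM minus the control mean in VpR83, VpR99, VpR126 and VpR2020 for the tested genes of 6 of the 7 role lists, 1 panel a list, with grey lines joining the same gene and black bars at the medians. The median of the adhesion receptors is 2.55 in VpR126 and between -2.54 and -1.06 in the other 3 libraries, and that of the transcription factors is below 0 in all 4.

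The adhesion receptors and membrane proteins came closest to the members. None of 10 tested was called by edgeR, with 0 at an unadjusted p below 0.05, while limma-voom called 1 lower and DESeq2 none, with 6 left without an adjusted p. In VpR126, 9 of the 10 were at least 4-fold above the other conditioned libraries, against 1.41% of all genes. The 9 include Gp6 and Mpig6b, which passed the low-count filter only with VpR126 included. Itgb3, the partner of Itga2b in the fibrinogen receptor, had 8.38 CPM in VpR83, 17.7 in VpR99, 265 in VpR126 and 17.1 in VpR2020, against 54.6 and 68.6 CPM in the controls. Its log2 fold change was 0.32 ± 1.40 SE (edgeR adjusted p = 0.87) and -2.08 without VpR126 (edgeR adjusted p = 0.0065). Cd9, a tetraspanin made by many marrow cells, was the member of the list without the gap, at 213, 168, 142 and 231 CPM against 169 and 134 CPM. Jak2, a kinase that many cytokine receptors use, had 72.8 to 125 CPM in conditioned libraries against 92.0 and 77.8 CPM in the controls (edgeR adjusted p = 0.60).

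Transcription factors of the lineage followed another course, with a median below the control mean in all 4 conditioned libraries, VpR126 included. The edgeR test called 5 of 11 lower, against 19.7% of all genes, and 3 higher, against 22.5%. Nfe2, the large subunit of NF-E2, had 28.6, 91.9, 56.3 and 36.7 CPM in VpR83, VpR99, VpR126 and VpR2020, against 217 and 257 CPM in the controls (log2 fold change -2.15 ± 0.44 SE, edgeR adjusted p = 0.010). Zfpm1, which encodes FOG1, and Tal1 fell by 2.84 and 2.59 on the log2 scale (edgeR adjusted p = 0.0045 and 4.4e-04), and both were below the controls in VpR126 too. Gata1 had 0, 0.413, 10.6 and 0.498 CPM, against 77.5 and 77.8 CPM, so VpR126 exceeded the other conditioned libraries yet lay below both controls. Its log2 fold change of -4.79 ± 1.61 SE just missed the threshold (edgeR adjusted p = 0.053), and without VpR126 it was -7.90 (edgeR adjusted p = 0.0016). Mafg, which encodes a small Maf partner of NF-E2, was not called (log2 fold change 0.33, edgeR adjusted p = 0.13). Gata1 and Zfpm1 also serve red cell precursors, whose markers were low in all 4 conditioned libraries. Runx1, Fli1 and Mef2c, which many myeloid cells express, rose by log2 fold changes of 0.78, 0.60 and 0.97. The part of red cell precursors and of other myeloid cells in the values of these transcription factors was not tested.

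Among granule genes edgeR called 3 of 15 higher and 3 lower, close to the shares of all genes, 22.5% and 19.7%. Vwf, the ligand of GPIb, had 125, 35.9, 140 and 169 CPM in VpR83, VpR99, VpR126 and VpR2020, against 9.83 and 10.01 CPM in the controls (log2 fold change 3.56 ± 0.66 SE, edgeR adjusted p = 0.0077). It was higher in all 4 conditioned libraries, as Pf4 was, and showed no gap in VpR126. Tgfb1 and Pdgfb, growth factors that platelets release, rose by log2 fold changes of 0.76 and 1.60. Sparc, a matrix protein of α-granules also made by stromal cells, had 0.146 to 0.634 CPM in conditioned libraries, against 7.87 and 4.75 CPM in the controls, and Srgn and Nbeal2 fell by 1.42 and 0.50 on the log2 scale. Thbs1 (thrombospondin) and F13a1 (the A subunit of factor XIII) did not pass, at log2 fold changes of 2.12 and 1.52 (edgeR adjusted p = 0.14 and 0.052), and Thbs1 differed between the controls, at 841 and 61.1 CPM. Slc6a4, the gene of the serotonin transporter, was picked for its value. It had 0, 0.0973, 26.2 and 0.166 CPM in VpR83, VpR99, VpR126 and VpR2020, against 0.800 and 1.69 CPM in the controls. In the order of gaps at VpR126 it stood at rank 2, behind Slc1a2, a glutamate transporter gene outside the lists.

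Among signalling and eicosanoid genes edgeR called 3 of 14 higher, close to the 22.5% of all genes, and 1 lower, against 19.7%. Plek (pleckstrin) rose together with Ptgs1 and Tbxas1, which encode enzymes of thromboxane synthesis, by log2 fold changes of 2.03, 2.30 and 3.45 (edgeR adjusted p = 9.4e-04, 0.0070 and 0.0037). Tbxas1 had 203, 115, 330 and 331 CPM in VpR83, VpR99, VpR126 and VpR2020, against 23.5 and 21.4 CPM in the controls. Rasgrp2, which activates integrin αIIbβ3 through Rap1, fell by 1.98 on the log2 scale. Fermt3 (kindlin-3) and Bin2 did not pass, at log2 fold changes of 0.52 and 0.07. Alox12, the platelet lipoxygenase, again picked for its value, had 0.0732, 0.381, 32.7 and 0.443 CPM, against 1.70 and 2.63 CPM. Of 7 tested agonist receptors edgeR called P2ry12, an ADP receptor, while DESeq2 called 2 higher and limma-voom 1 higher and 1 lower. P2ry12 had 43.7, 21.2, 37.3 and 65.8 CPM, against 2.27 and 2.44 CPM (log2 fold change 4.15 ± 0.52 SE, edgeR adjusted p = 0.0022). The receptors P2rx1 for ATP and P2ry1 for ADP were not called, at log2 fold changes of 0.64 and -0.39 (edgeR adjusted p = 0.40 and 0.48). Of 7 cytoskeletal genes edgeR called Tuba4a, lower by a log2 fold change of -1.77, while DESeq2 called 1 higher and 1 lower and limma-voom 2 lower. Flna and Myh9, which encode filamin A and a non-muscle myosin of many cells, were not called and showed no gap in VpR126, at 1427 and 1266 CPM there. Tubb1, the platelet β-tubulin, picked for its value, had 15.3 CPM in VpR126 and 0.293 to 0.443 CPM in the other conditioned libraries, against 1.20 and 2.63 CPM.

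Likeness of pattern was measured as the root mean square difference between 2 genes' log2 CPM over the 6 libraries, each gene centred on its control mean. Nearest to Itga2b among all tested genes were Slc35d3 (0.27), Ehd3 (0.36), Sytl4 (0.37), Gp5 (0.39) and Slamf1 (0.41). Of the other members Gp1bb stood at rank 11, Gp1ba at 24, Gp9 at 73 and F2rl2 at 489 in this order, whereas Treml1, Ppbp and Pf4 stood at 12074, 14988 and 15094. Nearest to Pf4 were Clec4n (0.58), Gstm2 (0.58), Serpinb8 (0.64), Lrp12 (0.65) and Fam20c (0.67), with Ppbp at rank 94. Nearest to Ppbp were Plxdc2 (0.88), Trim30c (0.89), Serpinb2 (1.01), Mamdc2 (1.07) and Ccl24 (1.07), with Pf4 at rank 142.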

How the data were processed

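Total RNA of 6 mouse bone marrow libraries was sequenced after a stranded Illumina TruSeq preparation, as the labels' protocols state. The submitters' processing notes name Trimmomatic 0.38, STAR 2.5.2b and GRCm38. For the counting tool, strand setting and annotation, a name or version is not given in the sources used here. Raw counts of reads per Ensembl gene, with no normalization, were deposited by the authors; 45143 of 45706 identifiers matched GENCODE M21, which gave symbols, coordinates and exon lengths. Columns were matched to samples by name. Members, lists and rules were chosen with earlier results of these data known.

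Counts were filtered with filterByExpr, scaled by TMM and tested with edgeR 4.0.16 (R 4.3.3; robust quasi-likelihood, group as the only term, two-sided, adjusted p below 0.05). Each SE was taken as the size of the log2 fold change over the root of F and was not fitted. CPM and RPKM are TMM-scaled; log2 CPM uses a prior count of 2. The fit was tested on simulated data. Named genes were all members and, from each list, up to 3 called lower with the highest control mean, up to 3 called higher with the highest conditioned mean and up to 2 not called with the highest mean; exceptions are stated. Alternatives were upper-quartile, RLE and library-total scaling, no filter, DESeq2 1.42.0, voom of limma 3.58.1, VpR99 thinned, a prior count of 0.5 and each library left out. Rule-named genes that the text does not describe were not called, and some genes of the lists are not reported here.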

Additional observations from a re-analysis of the deposited data

Results flagged for a closer look

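Among 53 named genes, 16 had 1 conditioned library so far from the other 3 that its gap to the nearest, divided by the group's range in CPM, exceeded Dixon's 95% critical value for 4 samples. Chance flags about 1 in 20 groups where values are normally distributed. The ratio was taken on CPM without a log scale, so that rate may not hold here. The share flagged over all tested genes was not computed, so the counts of flagged genes have no background. Genes of one lineage are not independent, and the members were chosen with earlier results known. VpR126 was the library set apart for 13 of the 16. These included 6 of the 9 members, with gaps of 0.967 (Itga2b), 0.97 (Gp9), 0.983 (Gp1ba), 0.943 (Gp1bb), 0.97 (Gp5) and 0.923 (F2rl2) of the range. The others were Gata1 (0.953) and Zfpm1 (0.836) among transcription factors, the integrin gene Itgb3 (0.964), the growth factor gene Tgfb1 (0.891), the thrombin receptor genes F2r (0.934) and F2rl3 (0.87), and Treml4 (0.847). VpR99 was set apart for the chemokine genes Cxcl3 (0.863) and Cxcl1 (0.888) and for Trem3 (0.849). In all 16 the library set apart was the highest of the 4.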

How the results depend on the processing

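Leaving out 1 library moved the counts most. Genes called higher ranged from 1283 to 3657 and genes called lower from 918 to 3374, with the low ends at 1283 and 918 without control replicate 1 and 1299 and 991 without control replicate 2. Members called higher ranged from 1 to 2 and members called lower from 0 to 4, the 4 only without VpR126, and 1 member was called higher with no low-count filter and in voom. The other megakaryocyte and platelet genes called higher ranged from 3 to 12 and those called lower from 3 to 26; DESeq2 called 17 higher and voom 16 lower. Scaling by library totals gave 4 members at least 4-fold lower in VpR2020. Upper-quartile scaling shifted the median over all genes to -0.22 and library totals to -0.26, with 2738 genes higher and 4104 lower in the first and 2627 and 4171 in the second, against 3410 and 2983.

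With 1 library left out the log2 fold change ranged from -2.65 to 0.61 for Itga2b, -2.06 to 1.70 for Gp1ba, -2.17 to 1.12 for Gp1bb, -3.08 to 0.94 for Gp5, -0.64 to 2.13 for F2rl2, -2.08 to 0.70 for Itgb3 and -1.69 to 0.59 for F2rl3, each lowest without VpR126, and from -0.19 to 0.14 for Flna and -0.023 to 3.46 for Cxcl2. F2rl3 was at -0.07 and Flna at 0.04 without control replicate 1. Voom gave -1.77 for Itga2b, -1.01 for Gp1ba, -1.53 for Gp1bb, -2.08 for Gp5, -1.16 for Itgb3 and -1.07 for F2rl3. Library totals gave -0.062 for Itga2b, -0.077 for Jak2, -0.18 for Bin2 and -0.082 for F2rl3, and upper-quartile scaling -0.040 for Jak2, -0.14 for Bin2 and -0.015 for F2rl3. Flna was at 0.011 with no filter. Of the named genes' values, 584 kept their direction and side of the threshold, 60 lost and 20 gained a call and 25 reversed; apart from the left-out libraries, the cause was not tested. Where 1 control is left out, the lone control is assumed to vary like the other group. No paired analysis was possible because the conditioned libraries carry no replicate number. Depth limits Gp9 and Gp1bb in VpR83, at 2 reads each.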
